A study of Mus musculus with 9 samples.

Results

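Glycolytic enzymes were followed across laser-captured motor neurons and spinal cord of the mouse on oligonucleotide arrays. The genes were Hk1, Gpi1, Pfkp, Pfkm, Aldoa, Tpi1, Pgk1, Eno2, Pkm and Ldha, 10 in all, and every probe set that the array platform assigns to 1 of these symbols and to no other gene was used. This gave 20 probe sets of 45101 on the array, for 9 of the 10 genes. Gpi1 had no probe set of its own in the annotation used here and was not analysed. The genes were chosen by name, with earlier results of these data known, and all 20 probe sets passed the filter on dim signals.

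The 9 samples were 3 arrays of motor neurons taken by laser capture microdissection from SOD1 mutant mice, 3 arrays of motor neurons taken in the same way from wild-type mice, and 3 arrays of spinal cord from wild-type mice. Laser capture lifts chosen cells out of a section under the microscope, and mutant SOD1 causes an inherited form of motor neuron disease. The labels describe the cord samples as total cord in 1 field and as ventral cord in another, name no SOD1 allele, promoter, strain, sex or age, and leave the code D28 in the titles unexplained. They also do not say how many cells or animals stand behind an array or whether arrays share an animal, so that the p-values measure the spread between arrays, part of which may be technical.

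Glycolysis splits glucose into pyruvate in the cytosol and makes ATP without oxygen, and its enzymes act in a fixed order from hexokinase to pyruvate kinase. Lactate dehydrogenase then converts pyruvate and lactate into each other, and in the nervous system lactate from glia is known as a further fuel for neurons. Many steps have several isozymes: Hk1 is the main hexokinase of the brain, Pfkp and Pfkm are the platelet and muscle forms of phosphofructokinase, and Eno2 is the enolase of neurons.

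The arrays of the 3 groups differed in ways that touch every value below. Median signals lay between 274 and 366 on the SOD1-mutant arrays, between 269 and 313 on the wild-type captured arrays and between 556 and 583 on the cord arrays, although all arrays had been scaled to the same trimmed mean. Little signal reached captured arrays from the 5′ end of the Gapdh control transcript, itself a glycolytic enzyme gene: the log2 ratio of its 3′ to its 5′ signal was 4.49 ± 0.15 in SOD1-mutant motor neurons, 4.03 ± 0.44 in wild-type motor neurons and -0.28 ± 0.01 in cord (SD, n = 3 each). The summed signal of 14 motor neuron markers was 435500 to 490500 in SOD1-mutant motor neurons, 472800 to 479000 in wild-type ones and 92230 to 104200 in cord. Sums were lower in captured cells for 10 astrocyte markers (122900 to 139000 in SOD1-mutant motor neurons, 91630 to 105400 in wild-type motor neurons, 306600 to 328100 in cord) and 9 oligodendrocyte markers (345900 to 360100, 290500 to 315700 and 707500 to 833200 in the same 3 groups). The same held for 10 microglial markers (5026 to 5757, 3464 to 4033 and 51340 to 55630), 10 vascular markers (14200 to 15410, 10340 to 17300 and 83830 to 170200), 7 markers of inhibitory neurons (18250 to 26290, 18350 to 21240 and 90130 to 97290) and 6 of excitatory interneurons (12680 to 22080, 15960 to 20660 and 51620 to 53440). On all wild-type motor neuron arrays the microglial markers Aif1, C1qc, Trem2 and Itgam, the vascular marker Pecam1 and the interneuron markers Ebf2 and Grp lay below background. A sum follows its brightest markers most. Of 5 excitatory interneuron markers tested, 4 were called lower and 1 higher in wild-type motor neurons against cord. The part of these cell mixtures in the results was not tested. Sod1 itself, read on a probe set that need not tell a transgene from the mouse gene, had signals of 84714, 131987 and 120343 in SOD1-mutant motor neurons and 96983, 101356 and 101398 in wild-type motor neurons (log2 change 0.14, adjusted p = 0.698).

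Wild-type motor neurons were first compared with wild-type cord, that is, captured cells with the tissue around them. Most of the glycolytic probe sets were brighter in the motor neurons. On the brightest probe set of each gene, Pfkp, Aldoa, Tpi1, Pgk1, Eno2, Pkm and Ldha were higher, 1.28-fold to 2.51-fold, Pfkm was 1.26-fold lower, and Hk1 did not pass the test. Of the 20 probe sets, 14 were called higher, beside 24.0% of all 27022 probe sets tested, and 4 were called lower, beside 41.5%. Dimmer probe sets of Hk1 and Pfkp were among the 4, with signals near background in motor neurons. The median log2 change was 0.78 over the 20 probe sets and -0.35 over all, and on brightest probe sets 0.71 over the 9 genes and -0.10 over 12983 genes. By gene this order depended on the scaling, since with quantile normalization the medians were 0.21 over the 9 genes and 0.26 over all. Most of the 20 probe sets were bright, and the shares and medians over all were not matched to them in brightness. In bulk RNA of this kind a smaller share of cells of a type and less RNA per cell cannot be told apart, and the 3 probe sets or more that read Pfkp, Aldoa, Tpi1 and Pgk1 are not independent measurements.

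**Figure D1:**
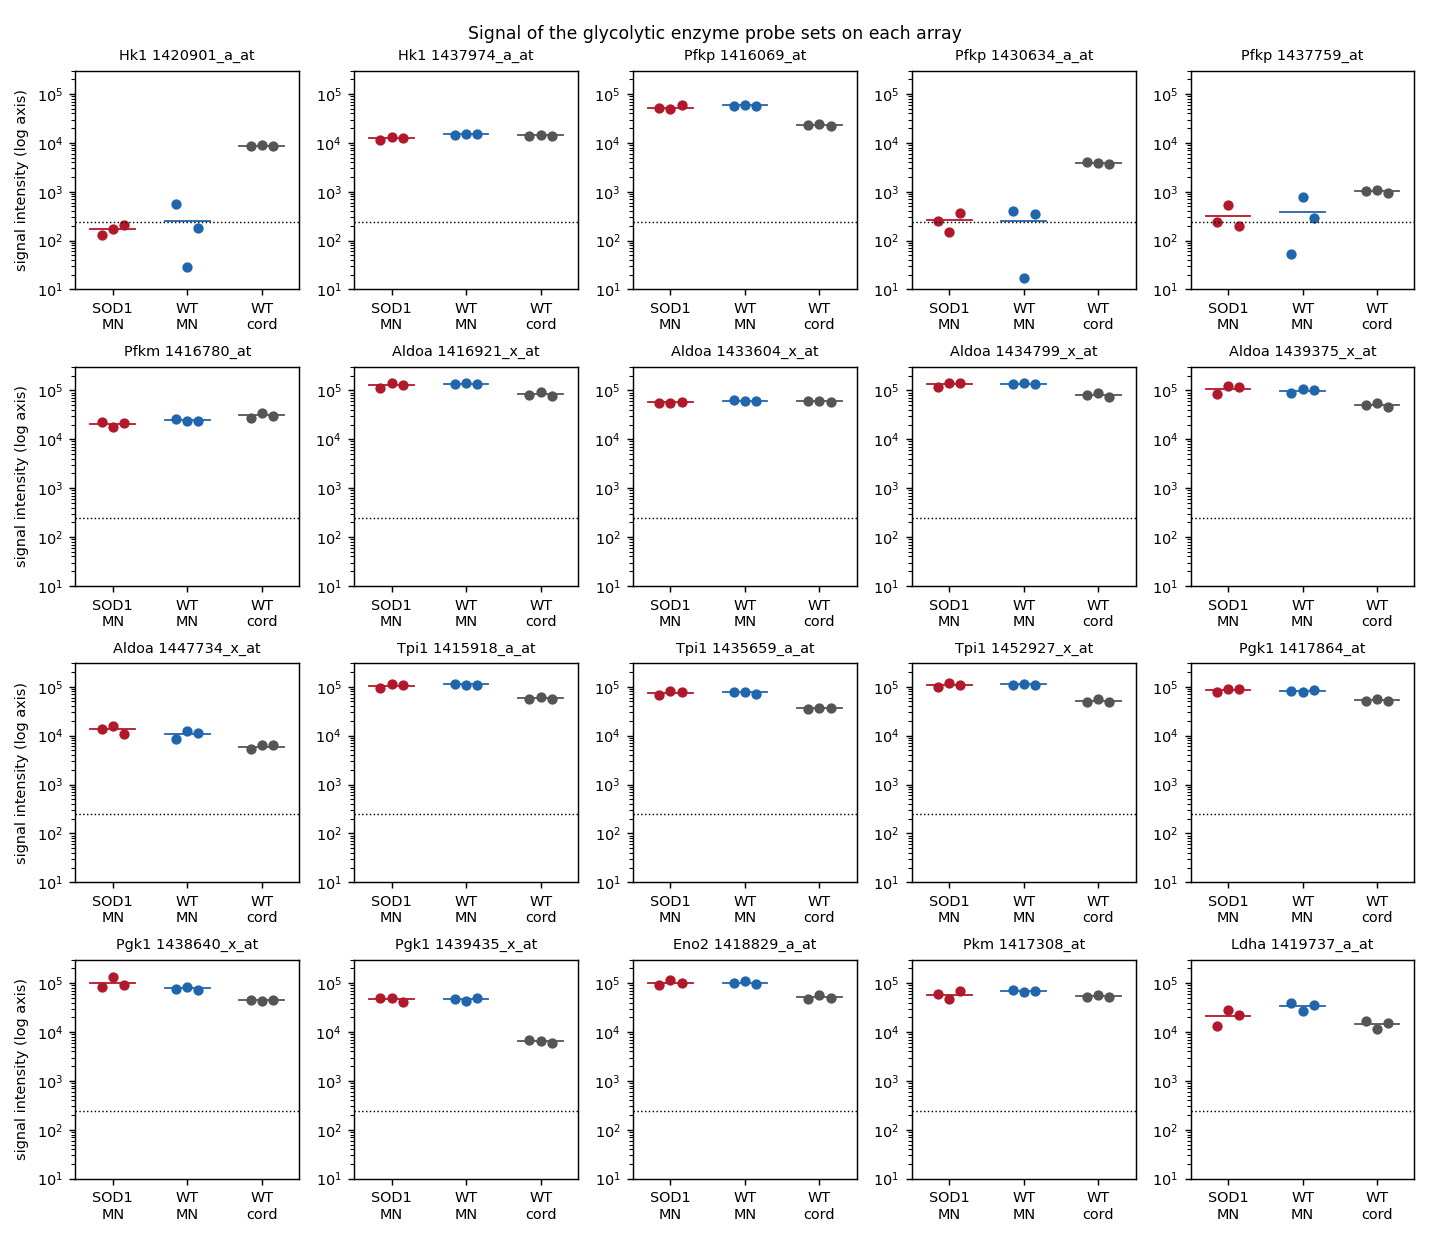
Signal intensity (log axis) of the 20 probe sets on each array, with SOD1-mutant motor neurons in red, wild-type motor neurons in blue and wild-type cord in grey. Points are arrays, short lines are group means, and the dotted line marks the highest background level of any array, 244. The dim probe sets of Hk1 and Pfkp lie around this line in both motor neuron groups, while most others sit higher in both motor neuron groups than in cord.

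Hexokinase opens the pathway by phosphorylating glucose and so trapping it in the cell. The brighter Hk1 probe set, 1437974_a_at, had signals of 11456, 13244 and 12431 in SOD1-mutant motor neurons, 14353, 14828 and 15515 in wild-type motor neurons and 13891, 14723 and 13885 in cord. Wild-type motor neurons and cord overlapped, and their difference was small (log2 change 0.07 ± 0.08, SE, 95% interval -0.10 to 0.25, adjusted p = 0.432). The other, 1420901_a_at, had signals of 129, 174 and 210.3 in SOD1-mutant motor neurons, 554, 28.9 and 181 in wild-type motor neurons and 8503, 9192 and 8672 in cord. Every captured array thus lay far below every cord array on it, and wild-type motor neurons were 49.3-fold lower (log2 change -5.62 ± 0.72, SE, adjusted p = 0.000154), with 2 of their 3 arrays above background. Replicate 2 of the wild-type motor neurons, the dimmest, was the one below background, and the SD of these 3 arrays was 1.78 on the log2 scale. The size of this fall therefore depended on single arrays: the log2 change was -4.70 without replicate 2, -6.47 without replicate 1 of the wild-type motor neurons, and -5.06 with values raised to background. The letter a in such names marks probe sets that match several transcript forms of 1 gene.

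Phosphofructokinase commits the sugar to glycolysis and is the main point of control. Of its platelet form, the brightest Pfkp probe set, 1416069_at, had signals of 50748, 49348 and 58336 in SOD1-mutant motor neurons, 57709.5, 60327 and 56789.6 in wild-type motor neurons and 22820.5, 24232 and 22449 in cord. The captured arrays all lay above the cord arrays, and wild-type motor neurons were 2.51-fold higher (log2 change 1.33 ± 0.07, SE, adjusted p = 8.46e-07). A second Pfkp probe set, 1430634_a_at, ran the other way, with 247, 152 and 375 in SOD1-mutant motor neurons, 404, 17.5 and 345 in wild-type motor neurons and 4137, 3804 and 3726 in cord. Here 2 of the 3 wild-type motor neuron arrays were above background, and the group was 21.7-fold lower than cord (log2 change -4.44 ± 0.80, SE, adjusted p = 0.00115). Replicate 2 was again the one below background, and the log2 change was -3.31 without it, -5.05 without replicate 1 of the wild-type motor neurons, and -3.74 with values raised to background. The third, 1437759_at, was dim in both motor neuron groups. Its signals were 245, 528 and 196 in SOD1-mutant motor neurons, 53.3, 786 and 292 in wild-type motor neurons and 1048, 1079.6 and 945 in cord. Its fall in wild-type motor neurons (log2 change -1.98 ± 0.73, adjusted p = 0.0398) passed in 8 of 16 alternative settings, and without cord replicate 2, for example, the adjusted p was 0.0950. It was also lost without cord replicate 1 (0.0884), cord replicate 3 (0.0796) or wild-type motor neuron replicate 3 (0.0827). The log2 change was -1.06 without wild-type motor neuron replicate 1 and -2.78 without replicate 2.

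The muscle form Pfkm, read by 1416780_at, was the only gene whose brightest probe set fell in motor neurons. Its signals were 22384, 17768 and 21788 in SOD1-mutant motor neurons, 25685, 23558 and 23462 in wild-type motor neurons and 27726, 34809 and 29368 in cord. The highest wild-type motor neuron array lay just under the lowest cord array, and the difference was -0.33 ± 0.10 on the log2 scale (SE, 1.26-fold lower, adjusted p = 0.0153). This call was lost without cord replicate 2 (log2 change -0.24, adjusted p = 0.0502) or without wild-type motor neuron replicate 3 (-0.31, adjusted p = 0.0590), and its direction turned with the scaling of the arrays.

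Aldolase cuts the phosphorylated hexose into a pair of triose phosphates, and Aldoa is its widely expressed form. All 5 of its probe sets end in x, which marks probe sets in which some probes can also match other sequences. On 1434799_x_at the signals were 118757, 139539 and 138532 in SOD1-mutant motor neurons, 133797, 138739 and 132423 in wild-type motor neurons and 79555, 86239.6 and 74499.6 in cord. Both motor neuron groups cleared the cord arrays on this probe set (1.69-fold in wild-type motor neurons, log2 change 0.76 ± 0.07, adjusted p = 2.35e-05). Another 3 gave similar changes in wild-type motor neurons: 1.64-fold on 1416921_x_at (adjusted p = 4.97e-05), 1.96-fold on 1439375_x_at (adjusted p = 2.29e-05) and 1.79-fold on 1447734_x_at (adjusted p = 0.0012). The exception was 1433604_x_at, with 55688, 56420.2 and 57545 in SOD1-mutant motor neurons, 64191, 60767 and 60956 in wild-type motor neurons and 59517, 61532 and 56544 in cord. Wild-type motor neurons and cord overlapped, and the log2 change in wild-type motor neurons was 0.07 ± 0.07 (adjusted p = 0.399).

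Triose phosphate isomerase, encoded by Tpi1, interconverts the products of aldolase so that both can go on through the pathway. Its 3 probe sets rose together. On 1435659_a_at the signals were 68836, 81594 and 77001 in SOD1-mutant motor neurons, 77436, 79836 and 71708 in wild-type motor neurons and 34721, 37363 and 36342 in cord, and the lowest captured array was well above the highest cord array. Wild-type motor neurons were 2.11-fold higher on it (log2 change 1.08 ± 0.07, SE, adjusted p = 2.91e-06). The other 2 gave 1.91-fold (1415918_a_at, adjusted p = 6.58e-06) and 2.2-fold (1452927_x_at, adjusted p = 3.49e-06). Among the 5 genes with several probe sets, Tpi1 was the one on which all of them gave nearly the same change.

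Phosphoglycerate kinase, encoded by the X-linked gene Pgk1, carries out the first ATP-yielding step. On 1439435_x_at it had signals of 50761, 50218 and 40476 in SOD1-mutant motor neurons, 48366, 42320.3 and 49569.8 in wild-type motor neurons and 6719, 6556 and 5991 in cord. This was the largest rise of the 20 probe sets, 7.25-fold in wild-type motor neurons (log2 change 2.86 ± 0.09, SE, adjusted p = 1.64e-07). The other Pgk1 probe sets rose less. On 1417864_at the signals were 76758, 88464 and 88220.1 in SOD1-mutant motor neurons, 81300, 79143 and 86735 in wild-type motor neurons and 51166, 56549.6 and 51745 in cord (1.55-fold in wild-type motor neurons, adjusted p = 7.00e-05). On 1438640_x_at they were 83031, 131582 and 92101, 77020.3, 84456 and 73122 and 44904, 43861 and 46048 in the same 3 groups (1.74-fold, adjusted p = 2.05e-05). All captured arrays lay above all cord arrays on the 3 probe sets.

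Enolase makes phosphoenolpyruvate, and its gamma subunit Eno2 is a classical marker of neurons. Its single probe set, 1418829_a_at, had signals of 90893, 117099 and 100256 in SOD1-mutant motor neurons, 98714, 111045 and 96888 in wild-type motor neurons and 48178, 56986 and 49027 in cord. The motor neuron groups coincided and both stood above cord (1.99-fold in wild-type motor neurons, log2 change 0.99 ± 0.09, SE, adjusted p = 1.71e-05). Pyruvate kinase, which yields the final ATP of the pathway, is encoded by Pkm. Its probe set 1417308_at had 60882, 47056 and 67548 in SOD1-mutant motor neurons, 74004, 64581 and 68026 in wild-type motor neurons and 52262, 58269 and 51363 in cord. The rise in wild-type motor neurons was the smallest of those called (1.28-fold, log2 change 0.35 ± 0.08, SE, adjusted p = 0.00446), and SOD1-mutant motor neurons overlapped with cord.

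Ldha encodes the subunit of lactate dehydrogenase that is known for turning pyruvate into lactate. Its probe set, 1419737_a_at, had signals of 13002, 28059 and 22040.4 in SOD1-mutant motor neurons, 38394, 26410.1 and 35844 in wild-type motor neurons and 16469, 11530.4 and 15111 in cord. Wild-type motor neurons lay clear of cord at 2.33-fold (log2 change 1.22 ± 0.17, SE, adjusted p = 0.000244), whereas mutant replicate 1 fell within the cord range. The SD of the log2 values was 0.57 in SOD1-mutant motor neurons, 0.29 in wild-type motor neurons and 0.27 in cord.

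Promoter sequence is shown for Ldha and Pgk1, which rose and hold the motif searched, and for Eno2, which rose as well and lacks it. Pgk1 had its large rise on 1439435_x_at only and was 1.55-fold higher on its brightest probe set. Pfkp, with the largest rise on a brightest probe set (2.51-fold), also lacks the motif, so the windows shown do not follow the size of the rise. RefSeq sequence of GRCm38.p6 from 250 bases before to 50 bases after each gene start was searched on both strands for ACGTG. This is a form of the core of the element bound by hypoxia-inducible factor, a known regulator of glycolytic genes. The other form, GCGTG, was not searched, and the counts below do not cover it. Matches are in capitals, and each sequence runs 5′ to 3′ on the gene's own strand.
Ldha, chr7:46845554-46845853, plus strand: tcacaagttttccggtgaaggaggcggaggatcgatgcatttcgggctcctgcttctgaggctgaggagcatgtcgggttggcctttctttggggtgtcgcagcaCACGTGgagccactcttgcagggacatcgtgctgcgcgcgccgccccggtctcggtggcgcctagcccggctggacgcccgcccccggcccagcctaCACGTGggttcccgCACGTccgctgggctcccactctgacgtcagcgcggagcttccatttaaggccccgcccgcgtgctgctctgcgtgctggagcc
Pgk1, chrX:106186850-106187149, plus strand: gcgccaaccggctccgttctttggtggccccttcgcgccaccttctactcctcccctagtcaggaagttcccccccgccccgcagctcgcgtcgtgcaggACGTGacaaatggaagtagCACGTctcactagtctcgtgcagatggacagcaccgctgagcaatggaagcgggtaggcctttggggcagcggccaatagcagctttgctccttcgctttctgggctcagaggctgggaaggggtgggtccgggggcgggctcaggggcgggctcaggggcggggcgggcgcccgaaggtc
Eno2, chr6:124769624-124769923, minus strand: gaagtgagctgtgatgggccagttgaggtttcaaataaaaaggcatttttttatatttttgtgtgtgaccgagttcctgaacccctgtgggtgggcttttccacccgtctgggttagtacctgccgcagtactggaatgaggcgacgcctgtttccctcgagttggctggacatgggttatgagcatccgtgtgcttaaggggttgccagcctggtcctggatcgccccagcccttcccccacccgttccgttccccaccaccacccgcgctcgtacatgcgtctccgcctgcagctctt
The Ldha window held 5 matches in 3 places, because CACGTG, the E-box, reads as a match on each strand and occurs there. Windows with 5 or more matches made up 0.183% of the 32851 windows of all genes. The Pgk1 window held 2 matches in 2 places, and windows with 2 or more made up 8.21%. Both cut-offs were set to the counts found in these windows, which were picked for holding the motif. The shares are therefore a description only. Of the 18 windows of the 10 glycolytic genes, 8 held at least 1 match, beside 19.6% of all windows. By gene, 6 of 10 did (Hk1, Pfkm, Aldoa, Pgk1, Pkm and Ldha), beside 21.8% of 27025 genes. A gene counted when any of its windows held a match. The 10 genes had 18 windows and all 27025 genes had 32851, so the glycolytic genes had more windows per gene. Several windows of a gene overlap, and a match says only that these letters occur. The second Ldha window and the only windows of Gpi1, Pfkp and Tpi1 held no ACGTG on either strand.

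Probe sets of 1 gene thus disagreed for Hk1, Pfkp, Aldoa and Pgk1, and the 3 Gapdh control probe sets, which read 1 transcript at different places, gave different changes too. Its 3′ probe set averaged 131040 in SOD1-mutant motor neurons, 132870 in wild-type motor neurons and 91061 in cord. For the middle probe set the means were 37043, 48184 and 96139 in the same groups, and for the 5′ probe set 5782, 8340 and 110300. In wild-type motor neurons over cord the log2 difference was therefore 0.55 at the 3′ end, -1.01 in the middle and -3.76 at the 5′ end (two-sided exact permutation p = 0.1 for each, the smallest that 3 arrays against 3 allow). Within each array, the difference between 2 probe sets of a gene, chosen as those with the highest and the lowest change against cord, is a measure that a constant factor between arrays hardly moves. A difference from cord follows from that choice, so the values are given as a description. For Hk1 it averaged 6.04 ± 0.26 in SOD1-mutant motor neurons, 6.38 ± 1.80 in wild-type motor neurons and 0.69 ± 0.02 in cord, and for Pfkp 7.64 ± 0.48, 8.34 ± 1.997 and 2.57 ± 0.10 in the same groups (log2, SD, n = 3 each). On some captured arrays the dimmer probe set of each lay below background, so that these differences have no exact size there. The same measure gave smaller differences from cord for Pgk1 (-0.85 ± 0.26, -0.82 ± 0.08 and -3.05 ± 0.10), Aldoa (0.89 ± 0.27, 0.67 ± 0.18 and -0.23 ± 0.06) and Tpi1 (0.04 ± 0.02, 0.00 ± 0.06 and -0.20 ± 0.05). Where on the transcripts the probe sets of these genes lie was not analysed here, and the part of the lost 5′ signal in their differences from cord was not tested. Taking the mean of all probe sets of a gene in place of the brightest, Hk1 and Pfkp were called lower in wild-type motor neurons (log2 change -2.78 and -1.69).

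**Figure D2:**
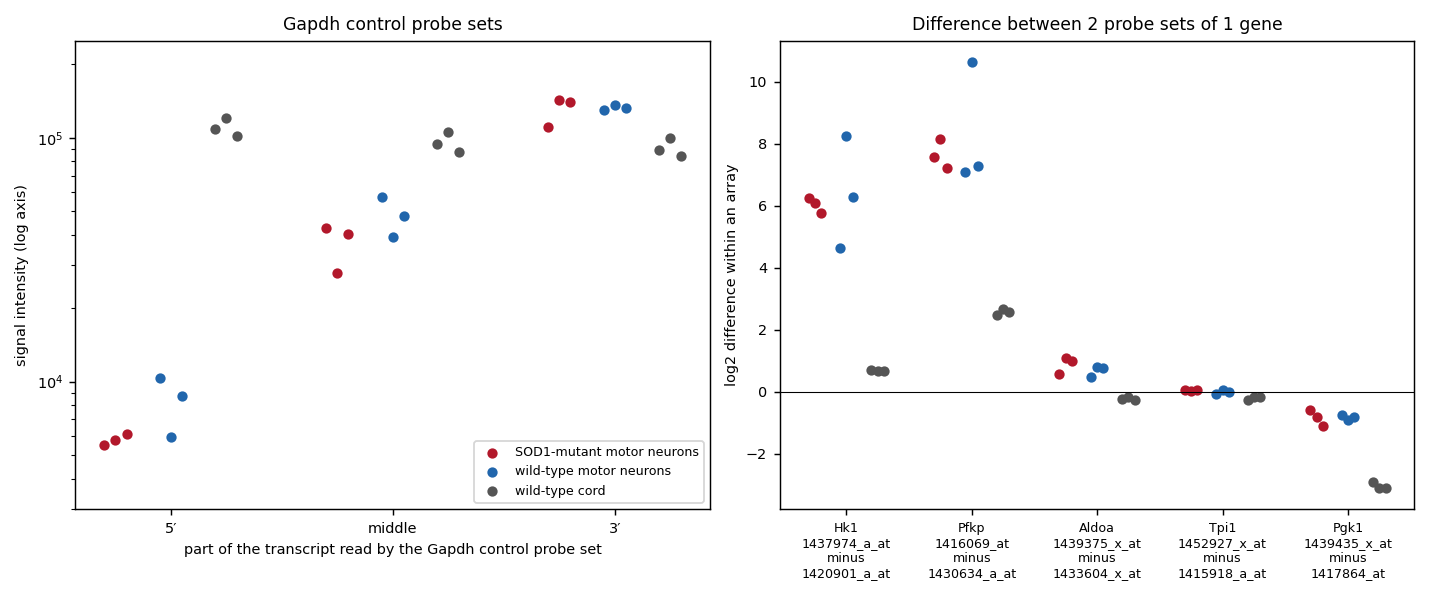
Left, signal intensity (log axis) of the 5′, middle and 3′ Gapdh control probe sets on each array, and right, the log2 difference between 2 probe sets of the same gene within each array. Red points are SOD1-mutant motor neurons, blue points wild-type motor neurons and grey points wild-type cord. The 3 Gapdh probe sets lie close together in cord and far apart in both motor neuron groups, and the differences for Hk1 and Pfkp, whose dimmer probe set was near or below background there, are several log2 units larger in motor neurons.

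The direction of some genes depended on how arrays were scaled to each other. With quantile normalization the median log2 change in wild-type motor neurons over cord, taken over all probe sets, was 0.13, and after centring each array on its median it was 0.56, against -0.35 with the authors' scaling. Quantile normalization left 12 glycolytic probe sets higher and 4 lower, beside 9647 higher and 7693 lower of all 27022 tested. Centring gave 17 higher and 2 lower, beside 12942 higher and 5269 lower of all. On brightest probe sets, quantile normalization called 5 of the 9 genes higher and 1 lower, beside 5474 higher and 3396 lower of 12983, and centring called 9 higher, beside 7510. In all 3 scalings 12 probe sets were higher, beside 22.1% of all, and they belonged to Pfkp, Aldoa, Tpi1, Pgk1, Eno2 and Ldha. Those lower in all 3 were 1420901_a_at of Hk1 and 1430634_a_at of Pfkp, beside 19.4% of all. Pkm turned from 0.35 with the authors' scaling to -0.17 (adjusted p = 0.0778) with quantile normalization and was 1.26 after centring. Pfkm was -0.77 with quantile normalization and turned to 0.57 after centring (adjusted p = 0.00422). The Aldoa probe set 1433604_x_at passed in opposite directions, at -0.46 with quantile normalization and 0.97 after centring. The brighter Hk1 probe set passed after centring (0.98, adjusted p = 2.08e-05), and the Pgk1 probe set 1417864_at no longer passed with quantile normalization (0.11, adjusted p = 0.163). Relative to the median of all probe sets, the Ldha change of 1.22 and the Pfkp change of 1.33 with the authors' scaling stayed above it in the other scalings, at 0.93 and 0.91 with quantile normalization and 2.13 and 2.24 after centring.

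**Figure D3:**
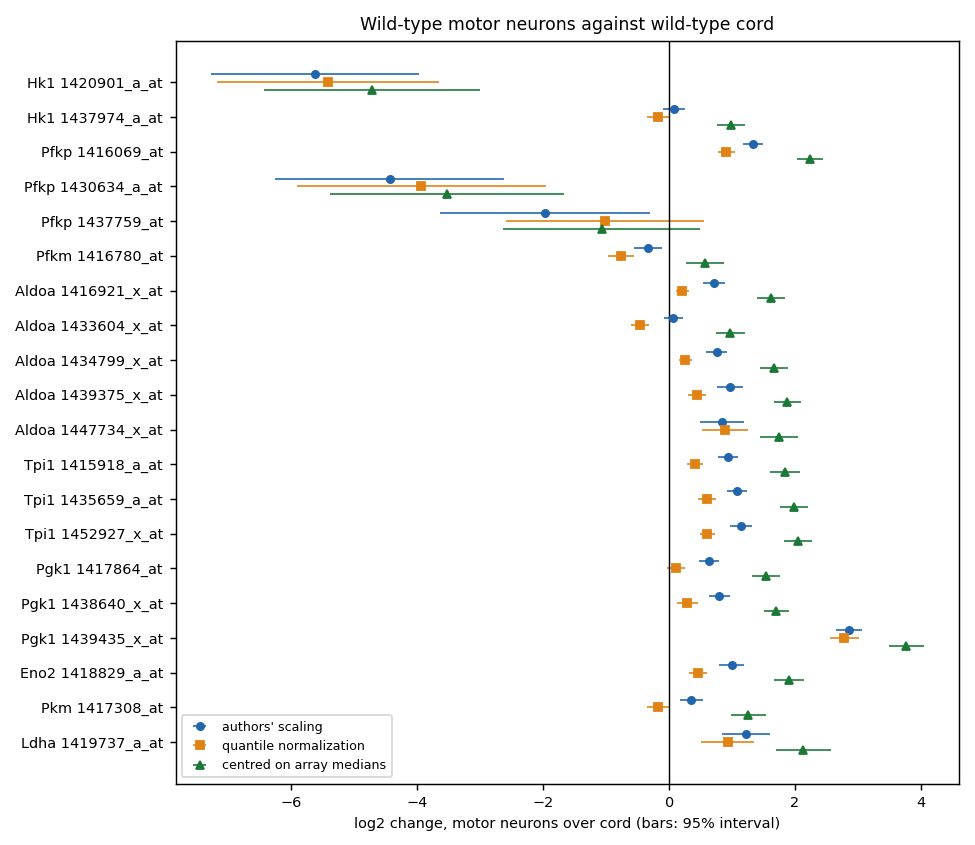
Log2 change of each glycolytic probe set in wild-type motor neurons over wild-type cord, with 95% intervals from limma, under the authors' scaling (blue circles), quantile normalization (orange squares) and centring on array medians (green triangles). Most points lie right of 0 in every scaling, those of Pkm, Pfkm, the brighter Hk1 probe set and 1 Aldoa probe set change side, and the dim Hk1 and Pfkp probe sets lie far to the left.

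Other enzymes of glycolysis and neighbouring pathways went both ways in wild-type motor neurons against cord. Among other glycolytic enzymes and isozymes, 2 of 12 tested genes, of 23 listed, were higher and 3 lower (median log2 change 0.09, beside -0.10 over all genes, of which 4041 were higher and 4693 lower). Ldhb, the other main lactate dehydrogenase subunit, averaged 136700 in wild-type motor neurons and 66710 in cord (log2 change 1.04, adjusted p = 5.80e-06). Eno3, the muscle enolase, was lower, with a dim 239.1 in wild-type motor neurons and 1064 in cord (log2 change -2.13). Aldoc, the brain aldolase known from astrocytes, was lower too, with 57290 in wild-type motor neurons and 101900 in cord (-0.83, which turned to 0.08 after centring). Phosphoglycerate mutase Pgam1, added after its values were seen, was called higher with the authors' scaling (0.26) and lower with quantile normalization (-0.22).

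Of 19 tested genes of glucose transport, glycogen and glycolytic control, of 21 listed, 11 were higher and 5 lower (median 0.41). The largest changes were falls: Pygm, the muscle form of glycogen phosphorylase, at -3.88, and the glucose transporter Slc2a12 at -2.96. Next was Pgm2, a phosphoglucomutase family member, at -2.48. Of the 3 wild-type motor neuron arrays, 2 lay below background for Slc2a12 and 1 for Pgm2. Of the main glucose transporters of the brain, chosen after their values were seen, Slc2a1, known from vessels and glia, averaged 5757 in wild-type motor neurons and 22670 in cord (log2 change -1.99, adjusted p = 2.29e-06), and Slc2a3, known from neurons, averaged 28110 in wild-type motor neurons and 17650 in cord (0.66, adjusted p = 0.000593). The summed vascular and astrocyte markers moved the same way as Slc2a1, and their part in it was not tested.

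Beyond pyruvate, 6 of 20 tested genes of pyruvate and lactate handling, of 23 listed, were higher and 9 lower (median -0.34). Pdk4 (-5.00, 2 of 3 motor neuron arrays below background) and Pdk2 (-2.72), kinases that restrain pyruvate dehydrogenase, and Bsg (-3.21), the chaperone of lactate transporters, fell most. The citric acid cycle and malate shuttle had 12 of 19 tested genes, of 20 listed, higher and 5 lower (median 0.85). Subunits of succinyl-CoA ligase led in both directions, Sucla2 at 1.43 and Suclg1 at 1.29 against Suclg2 at -1.89. In the pentose phosphate pathway 1 of 7 tested genes, of 9 listed, was higher, Pgd at 1.54, and 2 were lower, Rpe at -1.21 and Taldo1 at -0.46, the last turning to 0.44 after centring. After centring the counts moved to 7 higher and 1 lower for other glycolytic enzymes, 15 and 4 for glucose transport and control, 11 and 5 for pyruvate and lactate, 14 and 1 for the citric acid cycle, and 5 and 0 for the pentose phosphate pathway. Of all 12983 genes, 7510 were higher and 1989 lower in that scaling, with a median of 0.81.

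**Figure D4:**
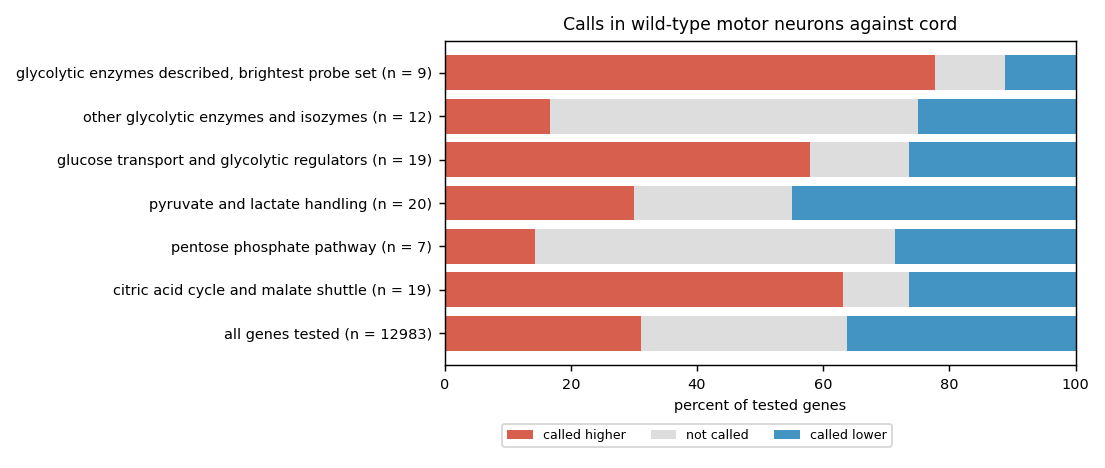
Percent of tested genes called higher (red), not called (grey) or called lower (blue) in wild-type motor neurons against wild-type cord with the authors' scaling, for the glycolytic enzymes described here, neighbouring pathways and all 12983 genes. The 9 glycolytic genes hold 7 higher and 1 lower, and the citric acid cycle holds 12 higher and 5 lower of 19.

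SOD1-mutant motor neurons were then compared with wild-type ones, which gives the difference between the captured samples of both genotypes. The summed astrocyte, oligodendrocyte and microglial markers were higher in the mutant samples without overlap, while the other marker sums overlapped. The part of these mixtures in the differences was not tested. No glycolytic probe set passed. With limma 0 of 20 were called higher, beside 0.152% of all probe sets tested, and 0 lower, beside 0.0703%. At an unadjusted p below 0.05 there was 1 of 20, that of Ldha, beside 15.2% of all probe sets. The log2 change was above 0 for 9 probe sets and below 0 for 11, with a median of -0.02 over the 20 and -0.01 over all.

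Ldha had the largest difference. With the signals given above, it averaged 21034 ± 7579 in SOD1-mutant motor neurons and 33549 ± 6313 in wild-type motor neurons (SD, n = 3 each), and the highest mutant array, replicate 2, lay above the lowest wild-type array. The log2 change was -0.72 ± 0.25 (SE, 95% interval -1.28 to -0.17, unadjusted p = 0.0159, adjusted p = 0.22). Leaving out mutant replicate 1, the dimmest, gave -0.41 (adjusted p = 0.284), and leaving out mutant replicate 2 gave -0.97 (adjusted p = 0.111). With the 3′ to 5′ ratio of Gapdh as a covariate it was -0.64 (adjusted p = 0.406). It passed in 1 of 18 alternative settings, that with array weights.

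On 3 probe sets all mutant arrays lay below all wild-type arrays, beside 11.7% of all probe sets, and on 0 they all lay above, beside 10.5%. These were the brighter Hk1 probe set (log2 change -0.27 ± 0.13, adjusted p = 0.366), Pfkm (-0.24 ± 0.14, adjusted p = 0.437) and 1433604_x_at of Aldoa (-0.13 ± 0.11, adjusted p = 0.586). None of these differences passed the test. The largest positive difference on a bright probe set was that of 1438640_x_at of Pgk1 (0.36 ± 0.16, adjusted p = 0.33), where mutant replicate 2 stood above the other arrays. The remaining Pgk1 probe sets gave 0.03 (95% interval -0.21 to 0.28) and 0.01 (-0.29 to 0.30).

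For the other enzymes the intervals set the size of change that could have gone unseen. The 95% interval of the log2 change was -0.27 to 0.28 for Eno2, -0.40 to 0.11 for the brightest Pfkp probe set and -0.57 to 0.07 for Pkm. The 3 Tpi1 probe sets had intervals of -0.34 to 0.16, -0.26 to 0.24 and -0.29 to 0.20. Those of Aldoa were -0.34 to 0.17 on 1416921_x_at, -0.27 to 0.21 on 1434799_x_at, -0.24 to 0.42 on 1439375_x_at and -0.10 to 0.74 on 1447734_x_at. The dim probe sets were far less certain, with -1.77 to 1.93 for 1420901_a_at of Hk1, -1.38 to 2.48 for 1430634_a_at and -1.48 to 1.99 for 1437759_at of Pfkp. A p-value that misses the threshold does not show that the genotypes were alike.

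**Figure D5:**
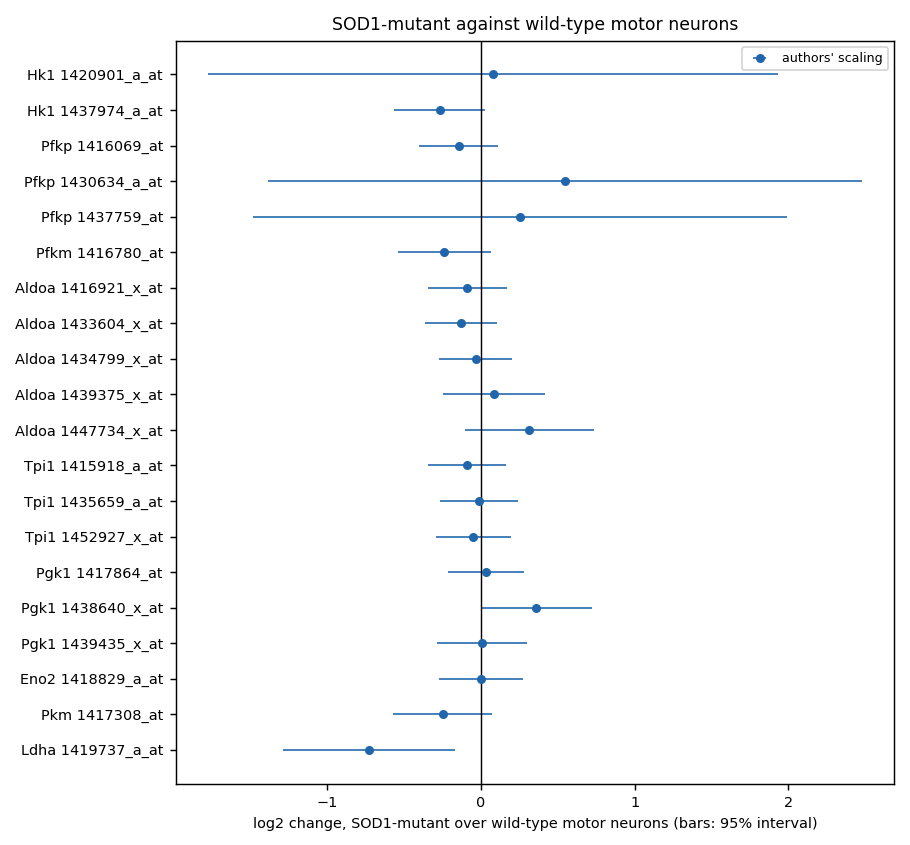
Log2 change of each glycolytic probe set in SOD1-mutant over wild-type motor neurons, with 95% intervals from limma and the authors' scaling. All intervals but that of Ldha include 0, and those of the dim Hk1 and Pfkp probe sets are the widest.

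Among the mutant arrays replicate 1 was often the dimmest. It was the lowest of the 3 mutant arrays on 13 of 20 glycolytic probe sets and on 38.8% of all probe sets tested. Among wild-type motor neurons replicate 3 was the lowest on 8 of 20 glycolytic probe sets, replicate 2 on 7 and replicate 1 on 5. Over all probe sets replicate 3 was the lowest least often, at 22.8%, against 40.3% for replicate 1 and 36.9% for replicate 2. Neighbouring pathways gave 0 calls between the genotypes in each of the 5 lists, with median log2 changes of 0.06 for other glycolytic enzymes, -0.12 for glucose transport and control, 0.02 for pyruvate and lactate, -0.22 for the pentose phosphate pathway and -0.02 for the citric acid cycle. In the same fit 41 probe sets in all were higher and 19 lower.

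Set beside cord without a test, the mutant motor neurons gave the following. All 3 mutant arrays were above all cord arrays on 12 glycolytic probe sets, beside 25.1% of all, and below them on 5, beside 44.9%. Those below included the brighter Hk1 probe set, whose wild-type motor neuron arrays overlapped with cord. The groups overlapped on 3 probe sets, those of Pkm and Ldha and 1433604_x_at of Aldoa. For Pkm and Ldha wild-type motor neurons had lain above cord, but the difference between the genotypes did not pass for either (adjusted p = 0.443 and 0.22).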

How the data were processed

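RNA was measured on 9 Affymetrix mouse arrays, 3 in each group, grouped by the sample descriptions and numbered by the titles. The authors deposited linear signal intensity values for each probe set, computed with software not given in the sources used here. All arrays shared a trimmed mean of 2500 (2% of probe sets dropped from either end), which shows a common scaling before deposit, and the number of arrays limits the precision.

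Of 45101 probe sets, 64 controls were left out. Before log2, 20.3 was added to each value as a pseudocount, which is the 10th percentile of the data and understates changes of dim probe sets. The filter kept 27022 probe sets, for 12983 genes, whose mean log2 signal over the 3 groups exceeded the 40th percentile. Each comparison was a two-sided limma fit (version 3.58.1, R 4.3.3) on its 6 arrays, with lmFit and with eBayes allowing for an intensity trend. P-values were adjusted by Benjamini-Hochberg over all probe sets tested, with a threshold of 0.05. Fold changes are on the log2(value + pseudocount) scale. Differences of single values were tested by exact permutation of 3 arrays against 3. By the platform annotation 34945 probe sets read 1 gene, 932 read several and 9160 had none. A gene with several probe sets was read by that of highest mean where 1 value was needed. Background was the 95th percentile of 27 Bacillus subtilis control probe sets on each array. The fit was tested on simulated arrays. Plots were made with matplotlib 3.10.9 (Python 3.11.15).

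The members and the lists of other pathways and cell type markers were chosen with earlier results of these data known. All probe sets of the members were described, and of each pathway list up to 3 called genes with the largest change. Deviations from group means of same-numbered arrays correlated at 0.03, 0.01 and -0.00 between wild-type motor neurons and cord. Between mutant and wild-type motor neurons they correlated at 0.15, 0.17 and 0.00. Differently numbered arrays gave -0.02 to 0.02 and -0.18 to 0.06 in the same 2 comparisons. These values do not settle whether arrays are paired. The labels name no pairs, and none were fitted in the main setting. Alternatives were quantile normalization, centring on array medians, other filters and pseudocounts, a joint fit of all arrays, eBayes without the trend, weights for arrays, a replicate block, a 3′ to 5′ covariate, values raised to background, averaging a gene's probe sets, and leaving out each array.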

Additional observations from a re-analysis of the deposited data

How the results depend on the processing

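For wild-type motor neurons against cord, 14 glycolytic probe sets and 7 genes stayed higher when any 1 array was left out, the number of probe sets called lower ranged from 2 to 4, and that of genes from 0 to 1, the lowest counts coming without cord replicate 2 and without wild-type motor neuron replicate 3. Probe sets called lower were 2 after centring, 2 without the intensity trend and 2 with the 60th percentile filter, where by its construction the dim Pfkp probe sets were not tested. Genes called lower were 0 after centring, 0 without the trend and 3 when all probe sets of a gene were averaged. Signs turned for Pkm (-0.17) and Aldoa 1433604_x_at (-0.46) with quantile normalization and for Pfkm (0.57) after centring. The cause was not tested. Of 338 values for single probe sets, 320 kept their side of the threshold, 12 lost the call, 3 gained one and 3 turned. Among the 320, 1 changed sign without being called, Hk1 1437974_a_at at -0.17 with quantile normalization.

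For SOD1-mutant against wild-type motor neurons, 0 glycolytic probe sets were called under every alternative but array weights, including each array left out in turn. Array weights called 1 probe set higher and 3 lower, and 2 genes lower, with Pgk1 1439435_x_at turned to -0.25 (adjusted p = 0.00537). This setting gave replicate 3 weights of 5.47 in mutant and 10.8 in wild-type motor neurons and called 13777 probe sets in all, so that the fit rests mostly on 1 array of each group. Of 358 values, 354 stayed on their side of the threshold, but 36 of these changed sign without being called. The number of all probe sets called was 60 with the settings reported, 3 without the trend, 1184 with all 9 arrays in 1 fit, 52 with the 3′ to 5′ covariate and 443 with the replicate block. With the replicate block the glycolytic calls stayed at 0 in this comparison and at 14 higher and 4 lower in wild-type motor neurons against cord. Dim probe sets are limited by their distance to background, and 3 arrays a group by their spread.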
